A study of Mus musculus with 8 samples.

Results

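The chemokine genes Ccl2, Ccl5, Ccl7, Ccl24, Cxcl1, Cxcl2, Cxcl9, Cxcl10, Cxcl12 and Cxcl13 are described here in livers with blocked bile flow. They were taken by gene name, 10 of the 53816 gene IDs listed in each library, and all 10 reached the mean over the libraries, 1 TPM (a transcript level scaled for gene length and library size), that was needed for testing. Liver RNA of 8 mice was sequenced. All had undergone bile duct ligation, an operation that ties off the duct, dams up bile and injures the organ. Of these, 4 mice carried the label LSEC Myc overexpression, which the design text words as an endothelial overexpression, and 4 were wild type. Both groups were ligated, and livers without ligation were not analysed here. The libraries are called Myc-labelled and control below. The sources used here do not give the promoter or Cre line that drives Myc, the strain, sex and age of the mice or the time after surgery. RNA came from whole liver, in which fewer cells of a type and less RNA per cell cannot be told apart.

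Chemokines are small secreted proteins that bind G protein-coupled receptors on leukocytes and draw them along a gradient held on the matrix and on endothelium. Inflammatory chemokines are switched on in injured tissue by NF-kB and by interferons, whereas homeostatic and lymphoid chemokines place cells in bone marrow and lymphoid follicles. In the cholestatic liver, hepatocytes exposed to bile acids, Kupffer cells, stellate cells, cholangiocytes and sinusoidal endothelium are all known sources of chemokines, and neutrophils and monocytes are the best known cells to arrive.

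Myc itself (chromosome 15, 61985391 to 61990374, mm10), the check of the labels, stood at 339, 356, 25.6 and 249 TPM in Myc-labelled livers 1 to 4, against 272, 207, 554 and 89.2 TPM in control livers 1 to 4. The groups overlapped, and the lowest value of all belonged to Myc-labelled liver 3. The log2 difference, Myc-labelled minus control, was -0.45 ± 0.95 (SE, n = 4 each; exact permutation p = 0.714, two-sided), and it was 0.43 without Myc-labelled liver 3. It was -0.79 and -0.82 without Myc-labelled liver 1 or 2, and -0.03 and -0.91 without control liver 3 or 4. The sources used here do not say if reads of a transgene would fall under this gene, so every direction below rests on the labels. Xist, the transcript that silences an X chromosome in females, was at 0.0454 to 0.0574 TPM in Myc-labelled livers 3 and 4 and control liver 3, and at 32.8 to 43.3 TPM in the other 5 libraries. Hepatocyte markers, led by Alb, were abundant in all libraries, summing to between 72003 and 105750 TPM in Myc-labelled livers and between 73628 and 128505 TPM in control livers. Aligned bases ranged from 5.29 to 6.74 Gb per library.

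None of the 10 chemokines passed an adjusted p of 0.05, and none differed at an unadjusted p under 0.05, in a limma fit over 13055 genes. Over all genes tested, 0.0% passed the adjusted threshold, and 1.86% had an unadjusted p under 0.05, with 165 higher and 78 lower in Myc-labelled livers. The adjusted p (limma, Benjamini-Hochberg) was 1.0 for each of the 10 genes. The difference lay above 0 for 7 chemokines and below 0 for 3, beside 58.0% of all genes above 0. For none of the 10 did all 4 libraries of one group lie above all 4 of the other, which was so for 1.26% of all genes. The median log2 difference of the 10 genes was 0.39, and that of all genes tested was 0.037. That median was 0.05 without Myc-labelled liver 4, 0.13 without control liver 1, 0.24 without control liver 3, 0.72 without control liver 4 and 0.79 without Myc-labelled liver 3. The 95% intervals reached from 0.47 log2 units to either side for Cxcl12 to 4.38 for Cxcl13. A rise of 1 log2 unit in Myc-labelled livers lay inside the interval of 9 of the 10 genes. A fall of 1 log2 unit lay outside the intervals of Ccl2, Ccl5, Ccl7, Ccl24 and Cxcl12.

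**Figure D1:**
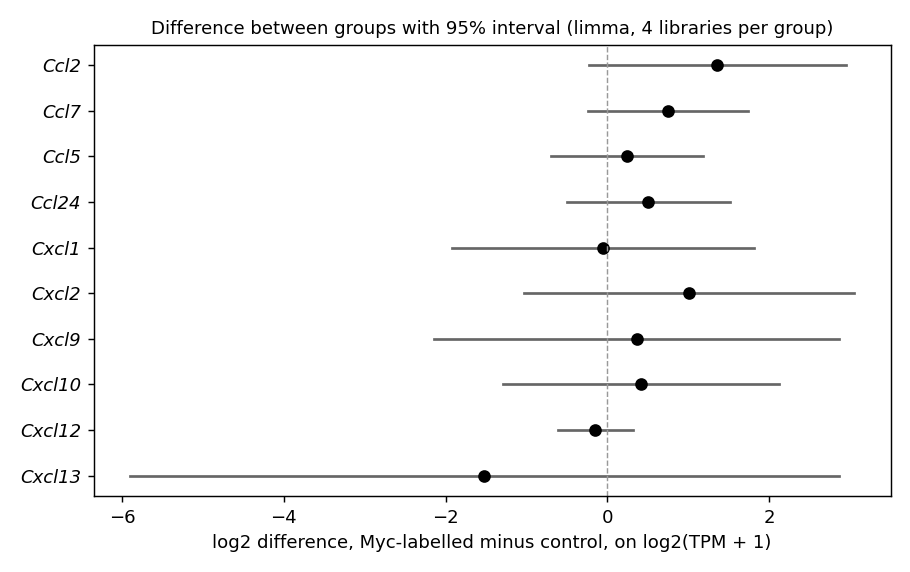
Points give the log2 difference (Myc-labelled minus control, on the log2(TPM + 1) scale) of each chemokine and lines its 95% interval from limma, with 4 libraries per group. All 10 intervals cross 0, from the narrow one of Cxcl12 (-0.61 to 0.32) to that of Cxcl13 (-5.90 to 2.86).

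Ccl2, the main ligand of the receptor CCR2 that brings monocytes out of the blood, was the chemokine with the largest positive difference. It lies on chromosome 11 (82035571 to 82037453, plus strand, mm10) and has up to 3 exons in GENCODE M21. Its level was 50.3, 17.5, 10.4 and 90.2 TPM in Myc-labelled livers 1 to 4, against 5.95, 12.98, 9.38 and 21.3 TPM in control livers 1 to 4. Myc-labelled livers 1 and 4 were above every control, whereas Myc-labelled livers 2 and 3 lay within the range of the controls. The means were 42.1 ± 36.5 TPM in Myc-labelled livers and 12.4 ± 6.60 TPM in control livers (SD, n = 4 each). Between the groups the log2 difference was 1.36 ± 0.68 (SE), with a 95% interval of -0.23 to 2.95, and 0.85 without Myc-labelled liver 4.

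Ccl7, a second CCR2 ligand, lies 8.26 kb beyond Ccl2 on the same strand (chromosome 11, 82045712 to 82047525). Its level was far lower, at 2.72, 1.22, 1.47 and 3.58 TPM in Myc-labelled livers 1 to 4, against 0, 0.913, 0.324 and 3.65 TPM in control livers 1 to 4. Control liver 4 had the highest value of all, but the other controls lay below every Myc-labelled liver, and Ccl7 was listed at 0 in control liver 1. The log2 difference was 0.75 ± 0.45 (interval -0.24 to 1.74). It depended on the pseudocount added before taking logarithms, with 1.76 at a pseudocount of 0.1 and 0.24 at 5, and was 0.45 without control liver 1 and 1.19 without control liver 4. Ccl7 was also thinly sampled, with a coverage of 0 to 11.3 reads per base across the libraries, against 14.2 to 210 for Ccl2.

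Ccr2, the gene of their shared receptor, was at 5.19, 2.42, 0.881 and 5.10 TPM in Myc-labelled livers 1 to 4 and at 1.56, 1.23, 0.857 and 4.94 TPM in control livers 1 to 4. The summed level of 8 monocyte markers, Ccr2 among them, ranged from 152 to 794 TPM in Myc-labelled livers and from 261 to 390 TPM in control livers. It was highest in Myc-labelled liver 4 and next highest in Myc-labelled liver 1, the libraries that were also highest in Ccl2. All 8 markers were tested, 5 lay above 0 and 3 below, and none passed. Their part in the Ccl2 and Ccl7 values was not tested.

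Ccl5, which attracts T cells and other leukocytes, lies on chromosome 11 (83525778 to 83530518, minus strand). It stood at 5.51, 6.13, 0.741 and 5.46 TPM in Myc-labelled livers 1 to 4, against 2.90, 4.49, 2.78 and 2.31 TPM in control livers 1 to 4. Thus 3 of the 4 Myc-labelled livers were above every control and the remaining one, liver 3, was below every control. The means were 4.46 ± 2.50 TPM in Myc-labelled livers and 3.12 ± 0.950 TPM in control livers (SD, n = 4 each), with a log2 difference of 0.24 ± 0.42 (interval -0.70 to 1.18). It was 0.73 without Myc-labelled liver 3 and 0.39 without control liver 2, but 0.05, 0.09 and 0.10 without Myc-labelled liver 2, 1 or 4 and 0.14 without control liver 4. The summed level of 9 T and NK cell markers was 1.38 to 4.18 TPM in Myc-labelled livers and 0.557 to 3.90 TPM in control livers, and none of the 9 reached the mean of 1 TPM.

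Ccl24, also called eotaxin-2, acts on CCR3 and is known from macrophages and for attracting eosinophils. On chromosome 5 (135569937 to 135573049, minus strand), it stood at 8.0, 6.16, 2.01 and 8.92 TPM in Myc-labelled livers 1 to 4, against 6.85, 1.37, 5.21 and 3.05 TPM in control livers 1 to 4. Each group held low and high livers, with control liver 2 and Myc-labelled liver 3 the lowest. On the log2 scale the difference was 0.51 ± 0.45 (interval -0.50 to 1.52). It was 0.89 without Myc-labelled liver 3, 0.31 without Myc-labelled liver 4 and 0.19 without control liver 2. Its receptor gene Ccr3 reached at most 0.244 TPM, in Myc-labelled liver 1, and the 5 eosinophil markers summed to between 0.00213 and 1.36 TPM in Myc-labelled livers and between 0.0374 and 0.617 TPM in control livers, with Il5ra at 0 in all 8. The 9 Kupffer cell markers, resident macrophages of the liver, summed to 641 to 1192 TPM in Myc-labelled livers and 820 to 1714 TPM in control livers. All 9 had a log2 difference below 0 and none passed, with a median of -0.44.

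Cxcl1 and Cxcl2 are ligands of CXCR2 and attract neutrophils. They lie 10.8 kb apart on the plus strand of chromosome 5, at 90891241 to 90893115 and 90903871 to 90905938. Their promoters are shown because the stretch just before each gene start carries nearly the same block of letters. The sequences are from RefSeq (GRCm38.p6), 5′ to 3′ on the strand of the gene, with Cxcl1 at chr5:90891091-90891240 and Cxcl2 at chr5:90903721-90903870.
Cxcl1: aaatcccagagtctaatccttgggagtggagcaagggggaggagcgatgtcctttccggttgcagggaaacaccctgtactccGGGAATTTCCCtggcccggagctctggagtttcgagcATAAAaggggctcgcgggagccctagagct
Cxcl2: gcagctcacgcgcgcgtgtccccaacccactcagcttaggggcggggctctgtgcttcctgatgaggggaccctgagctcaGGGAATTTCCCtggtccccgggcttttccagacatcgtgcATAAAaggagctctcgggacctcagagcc
Capitals mark matches to the kappaB motif, the letters bound by NF-kB, and to ATAAA, the core of a TATA box. In both genes the kappaB letters match on both strands, in overlapping positions. In Cxcl1 they lie 71 to 61 bases before the RefSeq start and in Cxcl2 97 to 87 bases before it. ATAAA begins 34 (Cxcl1) and 57 (Cxcl2) bases before the RefSeq start. The printed stretches stop 5 (Cxcl1) and 29 (Cxcl2) bases before that start, where the gene positions given above begin. Distances counted to the printed ends are therefore shorter, more so in Cxcl2. Over 32851 RefSeq mouse promoters, the 250 bases before the start held a kappaB match on either strand in 7.25%, and ATAAA on the strand of the gene in 24.0%. A match describes letters only.

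Cxcl1 was the second most abundant of the 10 genes, at 88.4, 26.4, 25.6 and 101 TPM in Myc-labelled livers 1 to 4, against 12.2, 135, 60.7 and 68.6 TPM in control livers 1 to 4. The controls held both the lowest and the highest value, so the Myc-labelled livers lay entirely inside their range. The means were 60.3 ± 39.9 TPM in Myc-labelled livers and 69.2 ± 50.6 TPM in control livers (SD, n = 4 each). The log2 difference came to -0.05 ± 0.80 (interval -1.92 to 1.81). Its sign turned when single livers were left out, as it was 0.24 and 0.26 without Myc-labelled liver 2 or 3, and 0.40, 0.02 and 0.08 without control liver 2, 3 or 4. It was -0.33 and -0.39 without Myc-labelled liver 1 or 4, and -0.72 without control liver 1.

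Cxcl2 had 16.6, 1.40, 1.88 and 22.2 TPM in Myc-labelled livers 1 to 4, against 0.629, 5.53, 1.88 and 4.49 TPM in control livers 1 to 4. As with Ccl2, Myc-labelled livers 1 and 4 were above every control, while livers 2 and 3 lay among the controls. The fitted log2 difference was 1.02 ± 0.87 (interval -1.02 to 3.05). It was 0.46 without Myc-labelled liver 4, 0.59 without Myc-labelled liver 1, 0.63 without control liver 1 and 1.55 without Myc-labelled liver 2. The ratio of Cxcl1 to Cxcl2, both in TPM, was 5.34, 18.9, 13.6 and 4.54 in Myc-labelled livers 1 to 4, against 19.3, 24.4, 32.3 and 15.3 in control livers 1 to 4. Cxcl1 thus exceeded Cxcl2 in every liver, by least in Myc-labelled livers 1 and 4. Of the 50-base stretches in the Cxcl2 transcripts, 5.84% also occur in Cxcl3, a neighbouring CXCR2 ligand at no more than 0.279 TPM in any library.

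Cxcr2, the receptor gene, was at 1.96, 1.26, 0.399 and 3.16 TPM in Myc-labelled livers 1 to 4, against 0.131, 1.52, 0.226 and 0.989 TPM in control livers 1 to 4 (log2 difference 0.62 ± 0.37). The 11 neutrophil markers, Cxcr2 among them, summed to 78.4, 52.4, 29.6 and 166 TPM in Myc-labelled livers 1 to 4, against 31.1, 74.7, 15.5 and 32.2 TPM in control livers 1 to 4. Myc-labelled liver 4, with the most Cxcl2, had the highest sum, and control liver 2, with the most Cxcl1, had the highest sum of its group. Of the 9 neutrophil markers tested, all 9 had a log2 difference above 0, with a median of 0.66, and 3 had an unadjusted p under 0.05, but none passed the adjusted threshold. The 3 with the smallest p were the decoy receptor Il1r2 (1.16 ± 0.35), the gelatinase Mmp9 (0.90 ± 0.32) and the granule gene Ngp (0.66 ± 0.29), given as log2 difference ± SE. The part of neutrophil number in the Cxcl1 and Cxcl2 values was not tested.

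**Figure D2:**
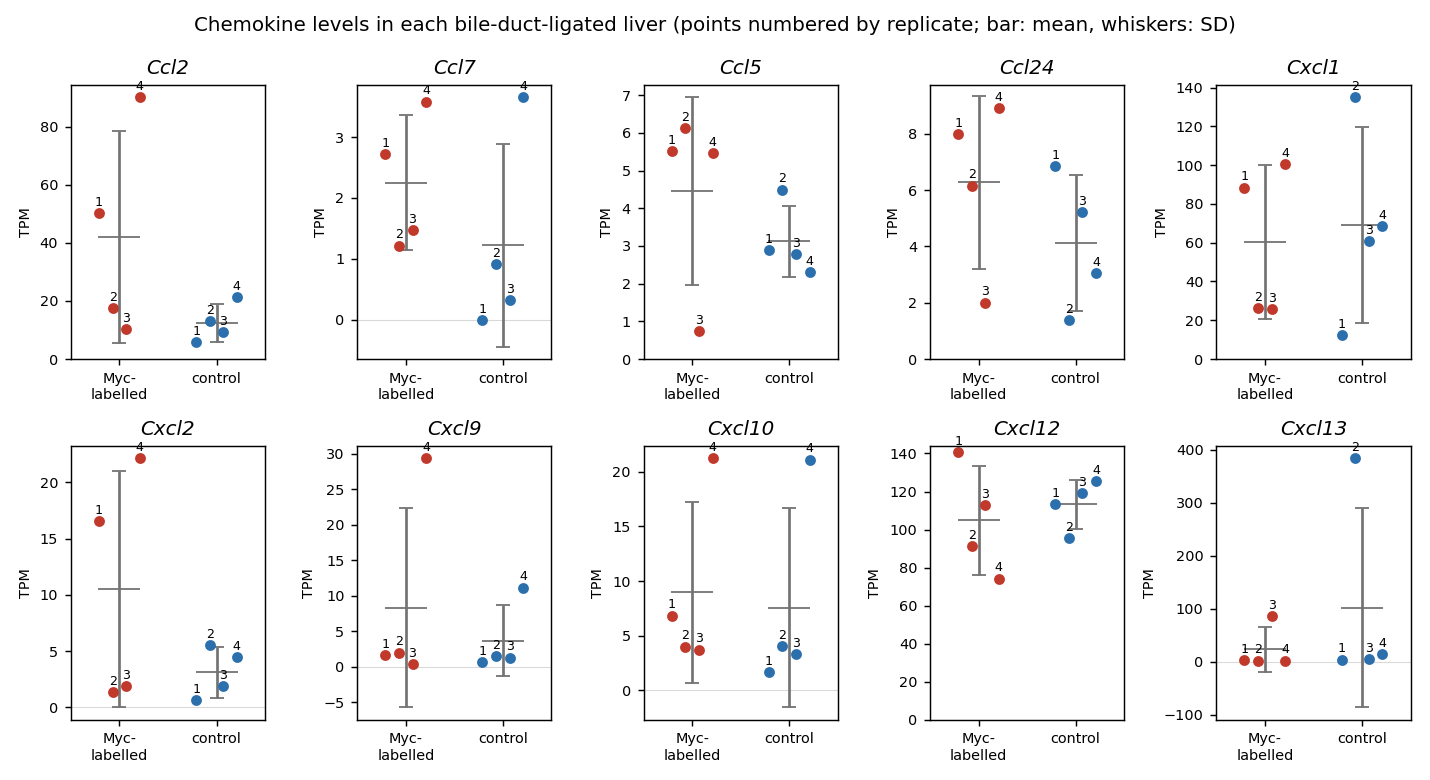
Each panel plots the level of 1 chemokine in TPM (linear axis) in the 4 Myc-labelled and the 4 control livers, with points numbered by replicate, a bar for the mean and whiskers for the SD. The groups overlap in all 10 panels, and single livers stand far above the rest in Cxcl13 (384 TPM in control liver 2) and Cxcl9 (29.4 TPM in Myc-labelled liver 4).

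Cxcl9 and Cxcl10 are ligands of CXCR3, the receptor of activated T cells and NK cells, and are best known as genes induced by interferon. They lie 18.6 kb apart on the minus strand of chromosome 5, Cxcl9 at 92321347 to 92328079 and Cxcl10 at 92346638 to 92348889. Their promoters are shown to compare the letters known for interferon and NF-kB, in the RefSeq sequence (GRCm38.p6) of the minus strand at chr5:92328080-92328329 for Cxcl9 and chr5:92348890-92349139 for Cxcl10.
Cxcl9: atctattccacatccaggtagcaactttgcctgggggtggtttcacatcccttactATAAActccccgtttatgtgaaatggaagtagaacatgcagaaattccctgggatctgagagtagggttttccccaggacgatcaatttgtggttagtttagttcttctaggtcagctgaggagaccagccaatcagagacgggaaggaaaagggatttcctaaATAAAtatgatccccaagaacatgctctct
Cxcl10: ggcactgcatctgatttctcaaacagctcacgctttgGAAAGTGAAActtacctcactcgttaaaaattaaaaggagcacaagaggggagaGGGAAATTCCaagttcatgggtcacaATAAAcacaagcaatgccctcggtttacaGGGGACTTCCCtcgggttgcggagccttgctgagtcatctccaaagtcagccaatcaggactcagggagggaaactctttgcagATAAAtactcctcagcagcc
Capitals mark ATAAA in both, and in Cxcl10 also an interferon-stimulated element (GAAANNGAAA, where N is any base) and kappaB matches in 2 places. The interferon-stimulated letters lie 213 to 204 bases before the start. The kappaB matches lie 159 to 150 and 104 to 94 bases before it, the nearer run holding overlapping matches on both strands. Searched on both strands, GAAANNGAAA was present in 1 of 6 chemokine promoters with a RefSeq entry and in 2.98% of all promoters, and the gamma-activated letters TTCNNNGAA in 0 of 6 and in 7.02% of all. A kappaB match was found in 3 of the 6, those of Cxcl1, Cxcl2 and Cxcl10.

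Cxcl9 stood at 1.63, 2.0, 0.326 and 29.4 TPM in Myc-labelled livers 1 to 4, against 0.666, 1.499, 1.30 and 11.1 TPM in control livers 1 to 4. A single liver of each group, in both cases the one numbered 4, was far above the rest of its group, and the other 6 did not exceed 2.0 TPM. The log2 difference was 0.36 ± 1.07 (interval -2.14 to 2.87). It was -0.59 without Myc-labelled liver 4, 0.59 without Myc-labelled liver 1, 0.99 without control liver 4, 0.92 without Myc-labelled liver 3, 0.04 without control liver 1, 0.23 without control liver 2 and 0.19 without control liver 3.

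Cxcl10 followed the same livers, at 6.85, 4.01, 3.73 and 21.2 TPM in Myc-labelled livers 1 to 4, against 1.67, 4.07, 3.35 and 21.1 TPM in control livers 1 to 4. Liver 4 of each group was at nearly the same high level, and every other liver was below 7 TPM. The resulting log2 difference was 0.42 ± 0.74 (interval -1.29 to 2.13). It was -0.07, 0.64 and 0.67 without Myc-labelled liver 4, 2 or 3, and 0.03, 0.26 and 1.04 without control liver 1, 3 or 4. Art3, which overlaps Cxcl10 on the opposite strand and shares 3.59% of its 50-base stretches, was at 0.670 to 3.44 TPM, and the sources used here do not give the strand of the reads.

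Ifng, which encodes interferon gamma, was listed at 0 in all 8 libraries. Genes of the wider interferon-gamma axis did not all go with Cxcl9 and Cxcl10 in the livers numbered 4. The GTPase gene Igtp stood at 19.3, 13.7, 8.72 and 15.5 TPM in Myc-labelled livers 1 to 4, against 12.3, 11.8, 11.5 and 59.7 TPM in control livers 1 to 4. It was thus high in control liver 4 and within the range of its group in Myc-labelled liver 4. Gbp2, another GTPase gene of the list, was the highest of its group in both, at 12.1 TPM in Myc-labelled liver 4 and 17.9 TPM in control liver 4. Of the 13 genes of this list, 9 were tested, 3 above and 6 below 0, with a median log2 difference of -0.16 and none passing. The 3 with the smallest p were Ifngr2 (0.30 ± 0.26), Gbp4 (-0.32 ± 0.30) and Igtp (-0.36 ± 0.51). Cxcr3, the shared receptor gene, did not exceed 1.02 TPM in any library.

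Cxcl12, the ligand of CXCR4 that retains blood progenitors and is made by stromal cells and endothelium, was the most abundant and the steadiest of the 10. On chromosome 6 (117168535 to 117181367, plus strand), it stood at 141, 91.4, 113 and 74.2 TPM in Myc-labelled livers 1 to 4, against 113, 95.5, 119 and 125 TPM in control livers 1 to 4. Myc-labelled livers held both the highest and the lowest value, liver 1 and liver 4. The means were 105 ± 28.7 TPM in Myc-labelled livers and 113 ± 12.9 TPM in control livers (SD, n = 4 each). Between groups, the log2 difference was -0.15 ± 0.21 (interval -0.61 to 0.32). It was 0.0053 without Myc-labelled liver 4, -0.30 without Myc-labelled liver 1 and -0.09 without Myc-labelled liver 2, and -0.22 and -0.09 without control liver 2 or 4. The interval is narrow enough to leave out a change of 1 log2 unit in either direction.

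Sinusoidal endothelium and stellate cells are known sources of Cxcl12. The 8 sinusoidal endothelial markers summed to 195, 146, 121 and 108 TPM in Myc-labelled livers 1 to 4, against 181, 151, 147 and 199 TPM in control livers 1 to 4. Liver 4 of the Myc-labelled group was lowest in that sum and in Cxcl12. Of these 8 markers, 1 lay above and 7 below 0, with a median log2 difference of -0.26 and none passing; the scavenger receptor Stab2 had the smallest p (-0.44 ± 0.19, unadjusted p = 0.043 by limma). The 8 stellate cell markers summed to 30.2 to 71.4 TPM in Myc-labelled livers and 27.3 to 48.3 TPM in control livers, 4 above and 4 below 0. Their part in the Cxcl12 values was not tested. The receptor gene Cxcr4 was at 5.69, 4.28, 1.18 and 7.72 TPM in Myc-labelled livers 1 to 4, against 2.92, 2.32, 3.76 and 3.71 TPM in control livers 1 to 4.

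Cxcl13, the ligand of CXCR5 that gathers B cells in follicles, had the widest range. It lies on the plus strand of chromosome 5 at 95956951 to 95961068. Its promoter is shown because it lacks the kappaB letters found in Cxcl1, Cxcl2 and Cxcl10 but holds 2 overlapping ATAAA runs, in capitals, at chr5:95956789-95956938 of RefSeq GRCm38.p6.
Cxcl13: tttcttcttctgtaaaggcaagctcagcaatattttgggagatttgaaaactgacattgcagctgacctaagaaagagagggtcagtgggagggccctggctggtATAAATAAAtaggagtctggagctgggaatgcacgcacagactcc
The runs lie 45 to 37 bases before the RefSeq start, and no kappaB, GAAANNGAAA or TTCNNNGAA match was in its 250 bases.

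Cxcl13 stood at 2.61, 1.94, 86.5 and 1.88 TPM in Myc-labelled livers 1 to 4, against 3.87, 384, 5.34 and 14.3 TPM in control livers 1 to 4. One liver of each group held most of the signal, Myc-labelled liver 3 and control liver 2, and the other 6 did not exceed 14.3 TPM. In control liver 2, Cxcl13 made up 59.5% of the summed TPM of the 10 chemokines, and in Myc-labelled liver 3 it made up 35.2%. The means were 23.2 ± 42.2 TPM in Myc-labelled livers and 102 ± 188 TPM in control livers (SD, n = 4 each). The log2 difference was -1.52 ± 1.82 (interval -5.90 to 2.86), -0.12 without control liver 2 and -2.72 without Myc-labelled liver 3.

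B cell markers were low in every library. The 7 of them summed to 0.659 TPM in Myc-labelled liver 3 and 2.28, 3.40 and 2.09 TPM in Myc-labelled livers 1, 2 and 4. The same sum was 2.33 TPM in control liver 2 and 1.70, 1.06 and 2.71 TPM in control livers 1, 3 and 4, and none of the 7 reached the mean of 1 TPM. The receptor gene Cxcr5 did not exceed 0.0948 TPM. Of 7 genes of the lymphotoxin pathway and the B cell niche, which is known to drive Cxcl13 in lymphoid tissue, 2 were tested. Both lay above 0, Ltb at 0.40 ± 0.42 and Ltbr at 0.02 ± 0.19 (log2 difference ± SE), and neither passed. Ltbr, the lymphotoxin beta receptor gene, was at 94.8, 86.8, 123 and 95.9 TPM in Myc-labelled livers 1 to 4, against 80.5, 126, 94.6 and 96.0 TPM in control livers 1 to 4. It was highest in the same livers as Cxcl13, over a far smaller range. Its ligand gene Ltb had 4.28, 3.58, 0.156 and 2.20 TPM in Myc-labelled livers 1 to 4, against 1.28, 0.896, 1.59 and 1.63 TPM in control livers 1 to 4, and was lowest in Myc-labelled liver 3.

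Ordered by median level over the 8 libraries in TPM, which is per length, the genes ran Cxcl12 (113), Cxcl1 (64.6), Ccl2 (15.3), Ccl24 (5.68), Cxcl13 (4.61), Cxcl10 (4.04), Ccl5 (3.70), Cxcl2 (3.18), Cxcl9 (1.56) and Ccl7 (1.34). Cxcl1 was above Ccl2 in 8 of 8 libraries, Ccl2 above Ccl24 in 7, and Cxcl12 above Cxcl1 in 6. From Ccl24 down to Cxcl9, each gene was above the next in only 3 to 5 of 8 libraries, so this part of the order did not exceed the spread. The ranges of all neighbours in the order overlapped.

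The spread between livers was wide for most of these genes. The SD of log2(TPM + 1) over the 8 libraries was 2.60 for Cxcl13, 1.55 for Cxcl9, 1.38 for Cxcl2, 1.24 for Ccl2, 1.16 for Cxcl1 and 1.12 for Cxcl10. It was 0.81 for Ccl7, 0.76 for Ccl24, 0.68 for Ccl5 and 0.29 for Cxcl12. The median over the 10 genes was 1.14, beside 0.29 over all genes tested, and 8 of the 10 lay above the 95th percentile of all genes. Cxcl12 stood at percentile 48.9 and Ccl5 at percentile 94.1. The highest library exceeded the lowest 204-fold for Cxcl13, 90.2-fold for Cxcl9, 35.2-fold for Cxcl2, 15.2-fold for Ccl2, 12.7-fold for Cxcl10 and 11.1-fold for Cxcl1, but 1.90-fold for Cxcl12.

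**Figure D3:**
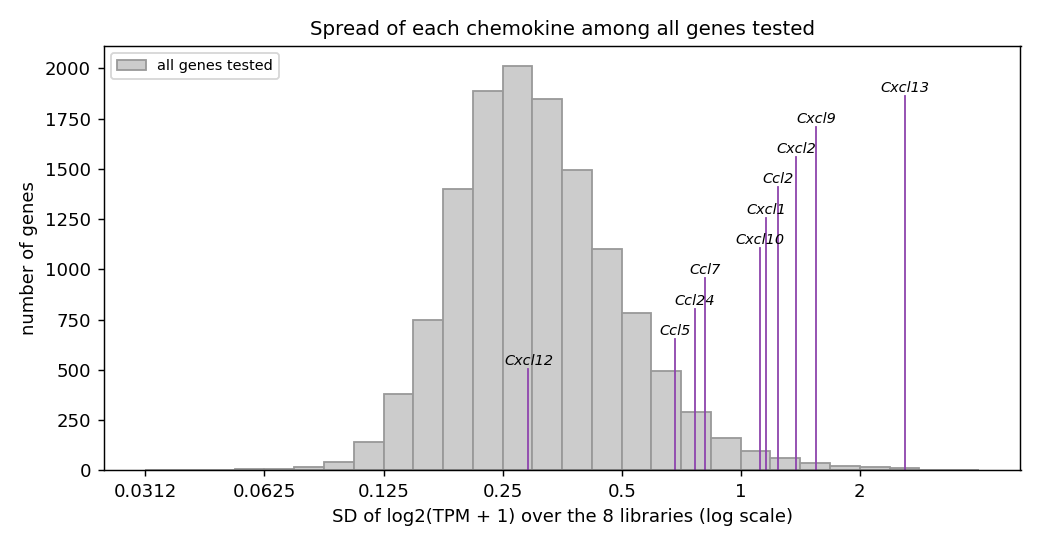
Bars count all 13055 genes tested by the SD of their log2(TPM + 1) over the 8 libraries (log axis), and lines mark the 10 chemokines, with line heights set only to separate the names. Cxcl12 lies in the middle of the distribution at 0.29, and the other 9 lie in its upper tail, up to Cxcl13 at 2.60.

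The high values did not fall in 1 liver for all genes. Myc-labelled liver 4 was the highest of the 8 for Ccl2, Ccl24, Cxcl2, Cxcl9 and Cxcl10, was among the highest 2 for 7 of the 10, and was the lowest for Cxcl12 and Cxcl13. Control liver 1 was the lowest for Ccl2, Ccl7, Cxcl1, Cxcl2 and Cxcl10. Control liver 2 was the highest for Cxcl1 and Cxcl13 and the lowest for Ccl24, and Myc-labelled liver 3 was the lowest for Ccl5 and Cxcl9. Summed over the 10 genes, the level was 323, 158, 245 and 358 TPM in Myc-labelled livers 1 to 4, against 148, 646, 209 and 275 TPM in control livers 1 to 4. Without Cxcl13 the sums were 321, 156, 159 and 356 TPM in Myc-labelled livers and 144, 262, 204 and 261 TPM in control livers. Cxcl13 thus placed control liver 2 above the rest, and without it Myc-labelled livers 4 and 1 had the highest sums.

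**Figure D4:**
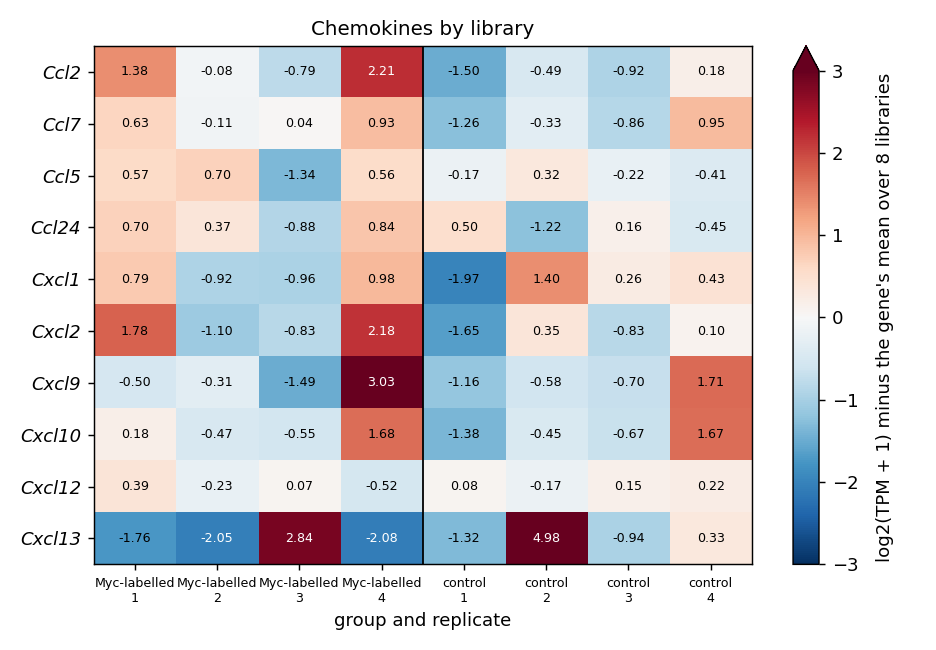
Each cell gives log2(TPM + 1) of a chemokine in 1 library minus the mean of that gene over the 8 libraries, with Myc-labelled livers on the left and control livers on the right (colours end at 3). Myc-labelled liver 4 is high in Ccl2 (2.21), Cxcl2 (2.18) and Cxcl9 (3.03), control liver 1 is low in Cxcl1 (-1.97), and Cxcl13 is high in control liver 2 (4.98) and Myc-labelled liver 3 (2.84).

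Pairs of the 10 genes were compared over the 8 libraries on the log2(TPM + 1) scale, in 45 correlations with exact permutation p-values adjusted over the 45 (Benjamini-Hochberg). Of these, 29 were positive and 16 negative, and 3 passed for Pearson's r and 0 for Spearman's rho. The smallest adjusted p for rho was 0.0502, in 2 pairs, Ccl24 with Cxcl13 and Ccl2 with Cxcl10. Cxcl12 correlated negatively with 8 of the 9 others and Cxcl13 with 7 of the 9, but most of these were weak. None of the Cxcl12 pairs passed, the strongest being r = -0.489 with Cxcl9. Of the Cxcl13 pairs only that with Ccl24 passed, for Pearson's r. All libraries enter each pair, so the pairs are not independent of one another.

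Ccl24 and Cxcl13 ran against each other, with r = -0.957 (exact permutation adjusted p = 0.0145, n = 8) and rho = -0.929. Myc-labelled liver 3 and control liver 2, highest in Cxcl13, were the lowest in Ccl24. They were also the 2 livers farthest from the median of the first gene of the pair, and without them r was -0.918. Ccl7 and Cxcl10 varied together, with r = 0.908 (exact permutation adjusted p = 0.0246, n = 8), rho = 0.881, and r = 0.841 without the 2 farthest livers. Ccl2 and Cxcl2 had r = 0.925 (exact permutation adjusted p = 0.0301, n = 8) and rho = 0.810, but 0.639 without the 2 farthest livers, so that this relation rests largely on Myc-labelled livers 1 and 4. Among the genes that lie side by side, Ccl2 and Ccl7 had r = 0.839 (exact permutation adjusted p = 0.0763, n = 8) and Cxcl1 and Cxcl2 had r = 0.794 (exact permutation adjusted p = 0.151, n = 8), and neither passed. Cxcl9 and Cxcl10, also neighbours, had r = 0.920 (exact permutation adjusted p = 0.0723, n = 8) and rho = 0.857, and did not pass either. They fell into 2 clusters, liver 4 of each group and the rest, and over the other 6 livers r was 0.510.

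**Figure D5:**
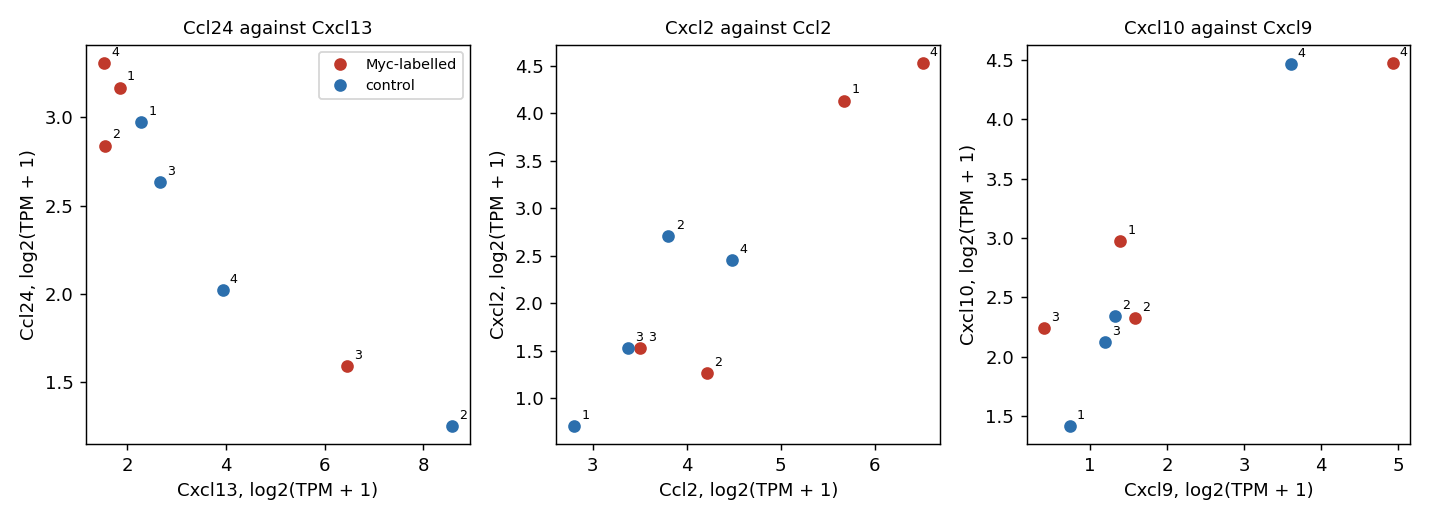
Log2(TPM + 1) of 1 chemokine is plotted against another in the 8 livers, coloured by group and numbered by replicate, for Ccl24 against Cxcl13, Cxcl2 against Ccl2 and Cxcl10 against Cxcl9. Ccl24 declines along Cxcl13 (r = -0.957), Cxcl2 climbs with Ccl2 (r = 0.925), and the liver numbered 4 of each group stands apart from the other 6 in Cxcl9 and Cxcl10.

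The genes most like each chemokine over the 8 libraries were sought by Pearson's r of log2(TPM + 1) among 8376 candidates with a mean of at least 5 TPM, as a description. With so many candidates and only 8 libraries, a high r is no test. For Ccl2 they were the stress transcription factor gene Ddit3 (r = 0.978) and Haus8 (r = 0.975), and for Cxcl2 they were Gng12 (r = 0.980) and the stress cytokine gene Gdf15 (r = 0.966). Tnfaip1 (r = 0.981) and Usp12 (r = 0.976) were nearest to Cxcl1, and Cep120 (r = 0.962) and Marf1 (r = 0.950) to Ccl7. For Cxcl10 the nearest were Apobec1 (r = 0.954) and the pattern receptor gene Tlr2 (r = 0.936), and for Cxcl9 Rnd1 (r = 0.942) and the immunoproteasome gene Psmb10 (r = 0.931). Ccl5 was nearest to Ppia (r = 0.967) and Macroh2a1 (r = 0.965), and Ccl24 to Mcat (r = 0.966) and Slc35a1 (r = 0.964). Cxcl12 was nearest to Sema3f (r = 0.945) and Slc43a3 (r = 0.940), and Cxcl13 to Qsox1 (r = 0.952) and the hepatocyte transcription factor gene Hnf4a (r = 0.944).

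No other gene of the chemokine system passed the adjusted threshold. Of 26 other chemokine ligands, 9 were tested, 7 above and 2 below 0, with a median log2 difference of 0.21. The macrophage chemokine Ccl6 had 114, 62.2, 53.1 and 110 TPM in Myc-labelled livers 1 to 4, against 65.5, 76.4, 39.5 and 63.1 TPM in control livers 1 to 4 (log2 difference 0.43 ± 0.29), and was high in Myc-labelled livers 1 and 4 as Ccl2 and Cxcl2 were. Ccl3 (0.23 ± 0.27) and Cx3cl1 (0.21 ± 0.26) were the next by p. Of the 8 receptors of the 10 chemokines, 5 were tested, all 5 above 0 with a median of 0.42, and none passed. Among them were Cxcr2, Ccr2 and Ccr1, the last at 5.44, 2.28, 1.13 and 3.95 TPM in Myc-labelled livers 1 to 4, against 1.28, 2.10, 2.21 and 2.09 TPM in control livers 1 to 4.

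Several atypical receptors take up chemokines without signalling, and the protease Dpp4 trims CXCL9, CXCL10 and CXCL12. Of 6 genes, those of atypical receptors and Dpp4, 4 were tested, 2 above and 2 below 0, and none passed. Dpp4 had 35.7, 37.0, 15.8 and 28.0 TPM in Myc-labelled livers 1 to 4, against 29.2, 25.5, 35.7 and 44.4 TPM in control livers 1 to 4 (log2 difference -0.24 ± 0.27), while Ackr1 (-0.34 ± 0.26) and Ccrl2 (0.22 ± 0.24) had smaller p-values. Of 13 regulators and targets of NF-kB and TNF, 11 were tested, 7 above and 4 below 0, with a median of 0.07 and none passing. The cytokine gene Il1b had 14.9, 4.48, 2.06 and 10.4 TPM in Myc-labelled livers 1 to 4, against 1.92, 5.17, 5.44 and 2.64 TPM in control livers 1 to 4 (log2 difference 0.71 ± 0.50), and was highest in Myc-labelled livers 1 and 4. Nfkb1 (0.15 ± 0.21) and Rela (0.10 ± 0.18), which encode subunits of NF-kB, differed little.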

How the data were processed

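Total RNA of 8 livers was extracted with a phenol reagent, and libraries were built for mRNA, per the labels' protocols. Per the submitters' processing notes, the tools were HISAT2 and StringTie and the build was mm10, with no versions. TPM values were deposited by the authors and were used throughout. FPKM was deposited by the authors in the same tables and served as an alternative. Coverage, a signal of reads per base, was deposited as well, per the file headers, and gave aligned bases, assuming that StringTie divides by all of them. Read counts were not used here.

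Repeated rows of a gene ID, 10 to 15 per library, were summed. Coordinates matched GENCODE M21 for 98.3% of IDs. Genes had to average 1 TPM or more over the 8 libraries, which left 13055. Their log2(TPM + 1) was tested two-sided in R 4.3.3 with limma 3.58.1 (trend and robust options on), with Benjamini-Hochberg adjustment over all of them at 0.05. Log2 differences are Myc-labelled minus control, and this scale understates changes of low genes. Myc was also tested by exact permutation over 70 assignments, and pairs of genes by exact permutation of the libraries. Other computations used Python 3.11.15, pandas 2.3.3, numpy 2.4.6 and scipy 1.17.1. Nothing says whether the 4 libraries of a group came from separate litters or batches. The pipeline was tested on simulated data. Promoter sequences from RefSeq (GRCm38.p6) were found for 6 of the 10 chemokines, all CXC genes.

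The 10 chemokines, the other gene lists and the tests were chosen with earlier results of these data known. Named were all 10 chemokines, Myc, up to 3 genes per list by smallest p, and the 2 genes most like each chemokine. Xist, Gbp2, Cxcr3, Cxcr4, Cxcr5, Ccr3, Cxcl3, Ifng and Il5ra were named for their role, and Art3 for its overlap, after their values were seen. Some genes of these lists are not reported here. In all, 20 alternatives were run, over the pseudocount (0.1 and 5), the filter (none, or 5 TPM), scaling, unit, variance model, weights, a block, a covariate, and leaving out each library. A run on the 5 libraries with Xist above 1 TPM was chosen after seeing the data.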

Additional observations from a re-analysis of the deposited data

Results flagged for a closer look

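Dixon's test at the 95% level was run on TPM in 22 groups of 4 (10 chemokines and Myc in both groups). In 6 of them a single liver stood far from the other 3 of its group. The usual chance rate of about 1 in 20 assumes normally distributed and independent values. It does not carry over here, as TPM was not log-transformed and the same livers recur across genes. Cxcl13 was far above the rest of its group at 86.5 TPM in Myc-labelled liver 3 and at 384 TPM in control liver 2. Cxcl9 was far above at 29.4 TPM in Myc-labelled liver 4 and at 11.1 TPM in control liver 4. Cxcl10 was far above at 21.1 TPM in control liver 4, while its 21.2 TPM in Myc-labelled liver 4 did not reach the limit for its group. Ccl5 was far below the rest at 0.741 TPM in Myc-labelled liver 3.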

How the results depend on the processing

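Of the 20 alternatives, none called any of the 10 chemokines, and the lowest adjusted p over them was 0.896. Genes higher in Myc-labelled livers stayed at 0 in each, and genes lower were 0 except with array weights, where limma called 1. The direction of Ccl2 (0.85 to 1.85), Ccl5 (0.05 to 0.73), Ccl7 (0.24 to 1.76), Ccl24 (0.19 to 0.93), Cxcl2 (0.18 to 1.55) and Cxcl13 (-3.23 to -0.12) held in each alternative that gave a value. Ccl5 and Ccl7 have none at a mean of at least 5 TPM. Array weights gave -0.093 for Cxcl10 and 0.23 for Myc. The 5 libraries with Xist above 1 TPM gave -0.40 for Cxcl9, -0.092 for Cxcl10, 0.034 for Cxcl12 and 1.01 for Myc. None was past the threshold. They were Myc-labelled livers 1 and 2 and control livers 1, 2 and 4. This run thus lacked the lowest and highest Myc values (25.6 TPM, Myc-labelled liver 3, and 554 TPM, control liver 3). It also lacked Myc-labelled liver 4, the highest in Cxcl9 and Cxcl10. With 1 library left out, the median of the 10 ranged from 0.05 to 0.79, Cxcl1 from -0.72 to 0.40, Cxcl9 from -0.59 to 0.99, Cxcl10 from -0.073 to 1.04, Cxcl12 from -0.30 to 0.0053 and Myc from -0.91 to 0.43, and the genes called stayed at 0. The cause of these shifts was not tested.

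At an unadjusted p under 0.05, 165 genes were higher and 78 lower, but 166 and 172 after median-of-ratios scaling, 166 and 152 after quantile normalization, and 574 and 72 without Myc-labelled liver 3. Same-numbered livers did not deviate together (r from -0.06 to 0.13, own number best for 1 of 4), and a replicate block gave 0 higher and 0 lower genes, 0 of the 10 chemokines called and 141 higher and 90 lower at an unadjusted p under 0.05. Intervals for all genes had a median of 0.47 log2 units to either side, without adjustment for the number of genes. Smaller changes were mostly not detectable with 4 libraries per group. That width is not the limit of the adjusted test, as larger differences such as 1.36 for Ccl2 did not pass it.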

Other observations

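Of 8 cholangiocyte markers, cells that multiply when the bile duct is closed, 7 were tested, all 7 above 0 with a median log2 difference of 0.24 and none passing. They summed to 56.7, 58.6, 17.0 and 41.0 TPM in Myc-labelled livers 1 to 4, against 32.9, 23.9, 35.4 and 32.1 TPM in control livers 1 to 4. Prom1 (0.51 ± 0.34), Sox9 (0.54 ± 0.38) and Cldn4 (0.31 ± 0.48) had the smallest p-values by limma, and none was under 0.05 unadjusted. Of the 8 hepatocyte markers, 3 lay above and 5 below 0, and the urea cycle gene Cps1 had the smallest p (-0.57 ± 0.24).

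Fgb, a fibrinogen chain and acute phase gene among the hepatocyte markers, was chosen after its values were seen. It stood at 3458, 3441, 11113 and 5826 TPM in Myc-labelled livers 1 to 4, against 5414, 9763, 3529 and 2648 TPM in control livers 1 to 4. Myc-labelled liver 3 and control liver 2 were the highest in both Fgb and Cxcl13. Alb and Ttr of the same list ran the other way, while the rest of the list did not share 1 direction in these 2 livers. Pck1, also picked after its values were seen, was at 2893 TPM in Myc-labelled liver 3 and 1503 TPM in control liver 2. Alb was at 42693 TPM (Myc-labelled liver 3) and 41497 TPM (control liver 2). Ttr was at 2067 TPM (Myc-labelled liver 3) and 1663 TPM (control liver 2). These were the 2 lowest of the 8 values for both Alb and Ttr.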
